A study of Mus musculus with 3 samples.

Results

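The genes described here encode the proteins of the cytosolic ribosome, the machine that translates nuclear mRNAs. Of 55536 annotated genes, 85 were taken by name: symbols that begin with Rpl, Rps or Rplp followed by a number, without the pseudogene names that end in -ps, without the Rps6k kinases, and with at least 1 protein-coding transcript. They comprised 43 large-subunit genes, 30 small-subunit genes, the 3 stalk genes Rplp0, Rplp1 and Rplp2, and 7 paralogs. The other 2, Rps19bp1 and Rpl7l1, match the name pattern and were counted here neither as core ribosomal proteins nor among these paralogs. A further 7 matching names (Rpl32l, Rpl37rt, Rpl6l, Rps12l1, Rps3a2, Rps3a3 and Rps4l) had no protein-coding transcript and were left out. The 85 genes lie on 19 chromosomes, 14 of them on chromosome 7.

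The RNA came from the chromatin fraction of bone-marrow-derived macrophages of C57BL/6J mice, cells grown from bone marrow in culture. The cells were exposed to lipid A at 100 ng/ml for 12 h, kept without it for 12 h, and exposed to 100 ng/ml again for 90 min. Toll-like receptor 4 senses this membrane anchor of bacterial lipopolysaccharide. Total RNA was depleted of ribosomal RNA and sequenced in 3 libraries, labelled as biological replicates 1, 2 and 3 of this 1 condition, from 1 µg, 250 ng and 500 ng of RNA. The labels do not say whether they were separate cultures or animals, so an SD here is a spread between libraries, in part perhaps a technical one. Unstimulated or once-stimulated cells were not analysed here, so no value below is an effect of lipid A.

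The libraries held 12671700, 21747001 and 16915406 expected counts, and the 85 genes took 13168, 25535 and 20886. The median gene of the set thus rested on 102, 199 and 169 counts. All 10 macrophage markers were detected, and none of the neutrophil, T-cell, B-cell, fibroblast or dendritic-cell markers was. Of the erythroid markers Alas2, Hbb-bs and Hba-a1 only Alas2 was detected, and of 4 endothelial markers only Vwf and Kdr were, while Hbb-bs, Hba-a1, Pecam1 and Cdh5 were each under 1 TPM in every library. The summed endothelial list was 50.1, 19.3 and 30.6 TPM in replicates 1, 2 and 3.

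Ribosomal protein genes are transcribed at high rates in growing cells, and many of the introns carry the genes of small nucleolar RNAs (snoRNAs), which guide modification of ribosomal RNA and are released by processing of the intron. Most of their mRNAs begin with a pyrimidine tract at the cap, the terminal oligopyrimidine or TOP motif, through which mTOR signalling and LARP1 control their translation. In a whole cell the spliced mRNA dominates. RNA on chromatin is enriched for transcripts that are still being made or processed, and the annotation lists transcripts with unspliced pieces under the type retained intron.

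The introns that follow are shown as examples of what retained-intron transcripts of 3 genes described below hold. The transcript with the first carried 33.4% of its gene's TPM, and those with the others 7.94% to 8.57%. They are shown 5′ to 3′ on the transcribed strand, from the GENCODE M21 transcripts on mm10. Capitals mark the first 2 and last 2 bases of the intron in the first 3, and the snoRNA gene Snord33 in the Rpl13a intron. Intron 2 of Rpl10 (chrX:74271719-74271799, plus strand, 81 bases) is held by the transcript Rpl10-208, intron 5 of Rpl10 (chrX:74272835-74272914, plus strand, 80 bases) by Rpl10-204, intron 4 of Rpl5 (chr5:107903404-107903665, plus strand, 262 bases) by Rpl5-203, and intron 4 of Rpl13a (chr7:45126795-45126990, minus strand, 196 bases) by Rpl13a-218.
Rpl10 intron 2: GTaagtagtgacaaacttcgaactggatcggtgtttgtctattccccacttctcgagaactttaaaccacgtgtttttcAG
Rpl10 intron 5: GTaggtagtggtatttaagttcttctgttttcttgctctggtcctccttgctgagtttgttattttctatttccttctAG
Rpl5 intron 4: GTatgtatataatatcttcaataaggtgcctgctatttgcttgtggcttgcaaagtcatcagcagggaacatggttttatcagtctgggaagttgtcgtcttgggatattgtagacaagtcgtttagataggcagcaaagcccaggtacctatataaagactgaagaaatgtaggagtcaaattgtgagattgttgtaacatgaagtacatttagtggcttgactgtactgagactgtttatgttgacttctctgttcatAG
Rpl13a intron 4: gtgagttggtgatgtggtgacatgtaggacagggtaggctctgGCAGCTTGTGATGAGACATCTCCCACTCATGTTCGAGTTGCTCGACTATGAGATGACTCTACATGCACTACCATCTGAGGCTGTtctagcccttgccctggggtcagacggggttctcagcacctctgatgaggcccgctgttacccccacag
All 4 began with GT and ended with AG. Snord33 filled 84 of the 196 bases of its intron.

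Because the TOP motif lies at the cap, the start of the gene was searched for a pyrimidine word. RefSeq promoter sequences (GRCm38.p6) were matched by symbol for 65 of the 85 genes. The word CTTTCC, read on the transcribed strand from 10 bases before to 15 bases after the start site, was present in 11 of these 65 genes (16.9%), against 1.24% of 27025 symbols in the same window and 1 of 69 mitochondrial ribosomal protein genes. On the opposite strand it was present in 0 of the 65 and in 1.22% of all symbols. The shorter word CTTTC, which CTTTCC contains, was present in 16 of the 65 genes (24.6%) and in 3.68% of all symbols, and on the opposite strand in 3.08% and 3.54%. These are matches of letters and not measured sites. The word could lie anywhere in the window, so these are not counts of TOP motifs. The 5 genes with the highest levels among those with CTTTCC follow, chosen after their values were seen. Each window runs from 15 bases before the start site to 15 bases from it, with the word in capitals.
Rpl13a (chr7:45128731-45128760, minus strand): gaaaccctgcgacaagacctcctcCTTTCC
Rps27 (chr3:90213634-90213663, minus strand): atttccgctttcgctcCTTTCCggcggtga
Rpl28 (chr7:4792950-4792979, plus strand): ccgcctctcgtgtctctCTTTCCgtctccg
Rps10 (chr17:27635230-27635259, minus strand): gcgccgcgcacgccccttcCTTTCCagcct
Rpl18 (chr7:45718056-45718085, plus strand): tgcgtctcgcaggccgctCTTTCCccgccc
In Rpl28, Rps10, Rpl18 and Rps27 the word began within 5 bases of the start site, and in Rpl13a it began at base 10. The base at the start site itself was C in Rps27, Rpl28 and Rps10. In Rpl13a and Rpl18 it was G, which is not a pyrimidine. The mean levels of these 5 genes lay between 18.8 ± 4.52 TPM for Rpl18 and 41.3 ± 12.7 TPM for Rpl13a (SD, n = 3).

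Most of the ribosomal protein genes were detected on chromatin. Levels are TPM from the gene table, a length-corrected share of all RNA features of a library, so genes can be compared with each other. The median over the 85 genes was 14.8, 20.5 and 22.0 TPM in replicates 1, 2 and 3 (19.1 ± 3.79, SD, n = 3). For all 22015 nuclear protein-coding genes, most of them not detected by the limit given next, the median was 0.353 ± 0.00577 TPM. At least 1 TPM in each library, the limit for detection used here, was reached by 80 of the 85, and 41.1% of all nuclear protein-coding genes reached it. At least 10 TPM in each library was reached by 61 of the 85 and by 19.1% of all. Between these limits lay 19 genes, and 5 were under 1 TPM in at least 1 library. The set as a whole held 0.168%, 0.208% and 0.225% of all TPM, or 0.493%, 0.761% and 0.765% of the TPM of nuclear protein-coding genes. With 1 group of 3 libraries the smallest p of an exact two-sided sign-flip test is 0.25, so differences are given as values in each library and no test is printed.

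**Figure D1:**
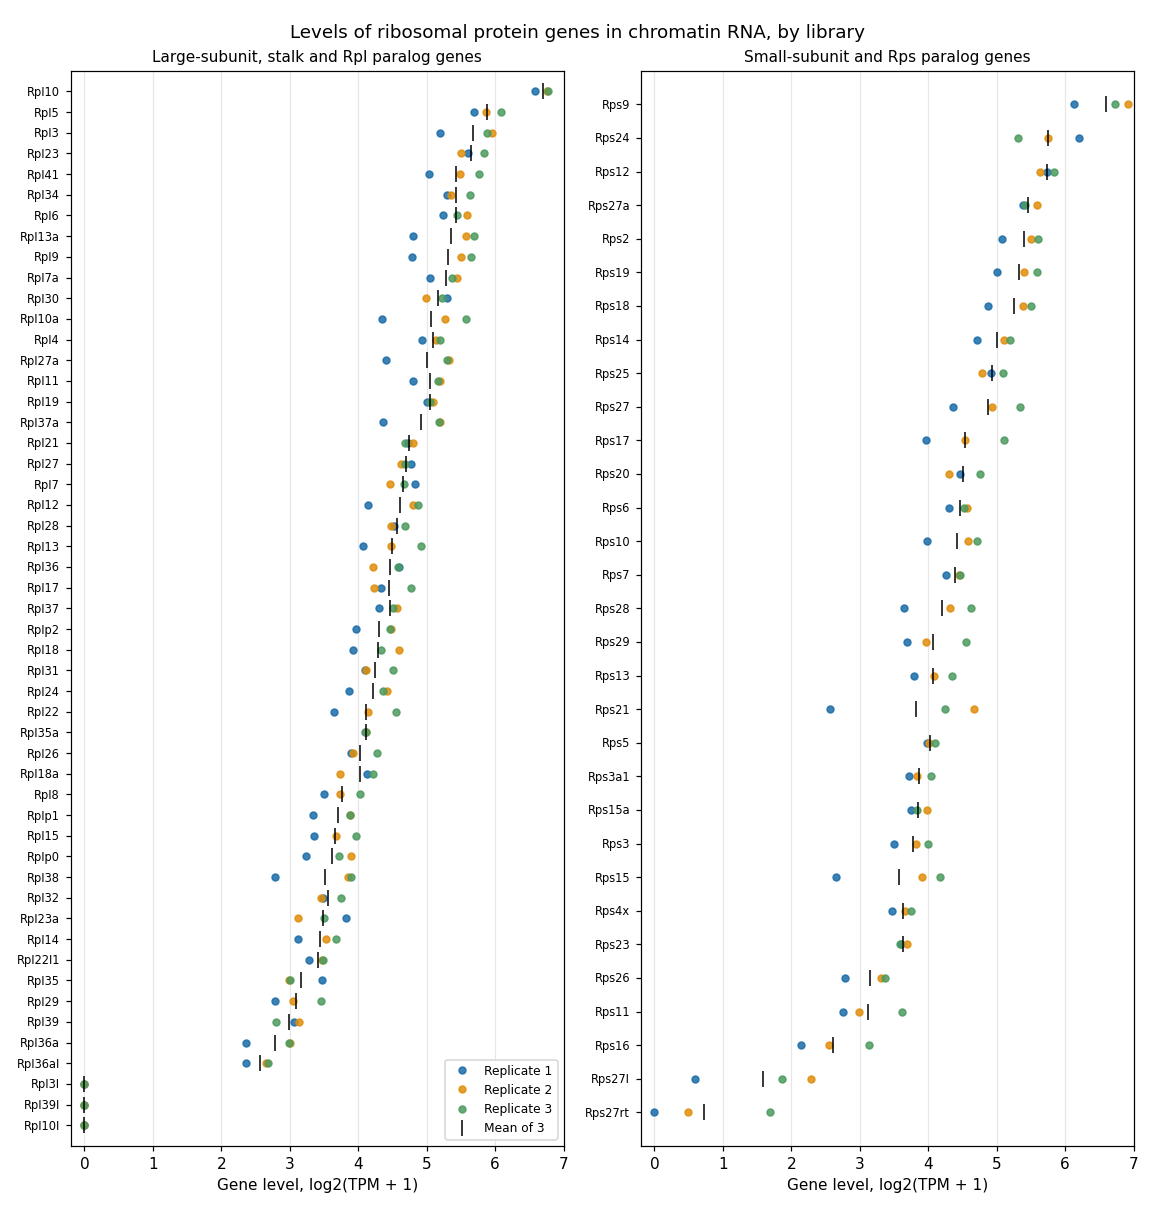
Levels of ribosomal protein genes, as log2(TPM + 1) on the x axis, with 1 point for each of the 3 libraries and a black bar for their mean; large-subunit, stalk and Rpl paralog genes on the left, small-subunit and Rps paralog genes on the right. Rpl10 and Rps9 lead, Rpl3l, Rpl39l and Rpl10l are at 0, and the replicate 1 point is often the leftmost.

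Among large-subunit genes Rpl10 was highest. Its protein joins the subunit late, close to the catalytic centre. Rpl10 (chrX:74270812-74273135, plus strand) had 94.6, 107 and 109 TPM in replicates 1, 2 and 3. Rpl5 and Rpl11 encode proteins that bind 5S ribosomal RNA and, outside the ribosome, the p53 regulator Mdm2. Rpl5 (chr5:107900502-107909005, plus strand) had 50.8, 57.1 and 66.8 TPM. Rpl11 (chr4:136028265-136053428, minus strand) had 26.9, 35.6 and 34.9 TPM, under Rpl5 in every library. Rpl3, a core protein near the catalytic centre, had 35.5, 60.9 and 57.7 TPM. Rpl23 had 47.6, 44.2 and 56.2 TPM. Rpl41, which encodes the shortest of the ribosomal proteins, had 31.7, 43.7 and 53.6 TPM, and Rpl34 38.5, 39.9 and 48.8. The values of Rpl3, Rpl23, Rpl41 and Rpl34 overlapped across libraries, so their order was not resolved.

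Other large-subunit genes lay on both sides of the median of the set, with Rpl10a, Rpl12, Rpl13a and Rpl4 above it in every library. Rpl10a had 19.3, 37.6 and 46.8 TPM, with replicate 1 far under the others. Rpl13a, whose protein is known for a second role in silencing inflammatory mRNAs in interferon-treated myeloid cells, had 26.9, 46.5 and 50.6 TPM. Rpl12 had 16.7, 26.7 and 28.2 TPM and Rpl22, which encodes an RNA-binding protein of the subunit, 11.5, 16.7 and 22.4. For both, replicate 1 was lowest. Rpl4 had 29.6, 34.2 and 35.7 TPM. Rpl23a, which sits at the exit of the peptide tunnel, had 13.2, 7.68 and 10.3 TPM, with replicate 1 highest. Rpl31 had 16.2, 16.3 and 21.6 TPM, Rpl36a 4.12, 6.99 and 6.96, and Rpl38 5.92, 13.4 and 13.9. The low level of Rpl36a depended on the table: in the transcript table made directly from reads it had 27.8, 15.6 and 19.9 TPM. There the mean was 13.0 TPM for Rpl12 and 25.5 for Rpl22, against 23.9 and 16.9 in the gene table. The stalk genes encode the proteins that recruit translation factors, and Rplp2 was the highest of them in every library. Rplp2 had 14.6, 21.4 and 21.1 TPM, Rplp1 9.08, 13.8 and 13.7, and Rplp0 8.47, 13.8 and 12.2.

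Among small-subunit genes Rps9 had the highest mean, with 69.2, 120 and 105 TPM (chr7:3703993-3706897, plus strand), though Rps24 lay above it in replicate 1. Rps9 lay below Rpl10 in replicates 1 and 3 and above it in replicate 2, so the order of the highest pair was not resolved. Rps24, which takes part in 18S ribosomal RNA maturation, had 72.8, 53.0 and 38.5 TPM (chr14:24487125-24496959, plus strand). Replicate 1 was highest here, and its deposited interval, 60.6 to 76.1 TPM, lay above those of replicate 2 (47.9 to 56.7) and replicate 3 (35.0 to 42.5). Rps12 had 52.5, 48.5 and 55.9 TPM. Rps27a, which encodes a ubiquitin fused to a ribosomal protein, had 40.6, 47.2 and 41.8 TPM, with no library apart.

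The other small-subunit genes described here reached lower, from 5.89 TPM for Rps26 to 47.1 for Rps19. Rps19, mutated in Diamond-Blackfan anaemia, had 31.1, 41.1 and 47.1 TPM, and Rps14, another gene of small-subunit assembly, 25.3, 33.5 and 35.5. Rps6 encodes the protein that S6 kinase phosphorylates downstream of mTOR, and had 18.7, 22.8 and 22.0 TPM. Rps13 had 12.8, 16.0 and 19.3 TPM. Rps3, which lines the mRNA entry channel and is also known as a partner of NF-kB, had 10.3, 13.2 and 14.9 TPM. Replicate 1 was lowest for each of these 5 genes. Rps15a had 12.5, 14.8 and 13.3 TPM and Rps26, whose protein touches the mRNA at its exit, 5.89, 8.95 and 9.30. In the table made directly from reads Rps12 had a lower mean, 28.1 TPM, and Rps19 (63.6) and Rps15a (24.3) higher ones.

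The difference in median level between the subunits was small, about the size of its SD, and its sign depended on the average used. The 51 Rpl and Rplp genes, paralogs included, had a median of 19.9 ± 3.12 TPM and the 32 Rps genes 18.8 ± 4.06 (SD, n = 3). The difference of the medians of log2(TPM + 1), large minus small, was 0.19, 0.075 and 0.013 in replicates 1, 2 and 3 (0.092 ± 0.089), and with means over genes in place of medians it was -0.047 ± 0.12.

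Of the 7 paralogs only Rpl22l1 and Rpl36al were detected, both below the median of the set in every library. Rpl22l1, the partner of Rpl22, had 8.72, 10.1 and 10.2 TPM, and Rpl36al, the relative of Rpl36a, whose reference transcript has no intron, 4.15, 5.29 and 5.39. Rps27l, known as a p53 target, had 0.51, 3.87 and 2.64 TPM from 2, 18 and 10 counts, and Rps27rt 0.00, 0.41 and 2.22 TPM. In the table made directly from reads Rps27l had a mean of 7.92 TPM and Rps27rt was listed at 0. The muscle gene Rpl3l and the testis-enriched genes Rpl10l and Rpl39l had 0 counts in every library. As 3 counts remain possible behind a count of 0, the upper limits were 0.347, 0.206 and 0.265 TPM for Rpl3l, 0.338, 0.201 and 0.258 for Rpl10l and 0.585, 0.367 and 0.466 for Rpl39l, for counting error only. Of the name matches, Rpl7l1 had 12.2, 12.0 and 11.5 TPM and Rps19bp1, which encodes a binding partner of Rps19, 1.89, 3.08 and 3.37 (mean 5.47 in the table made directly from reads). The 76 canonical genes alone had a median of 20.7 ± 3.80 TPM.

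Nuclear genes for mitochondrial ribosomal proteins, the other ribosome of the cell, lay lower. These 78 genes had a median of 3.86, 3.81 and 4.30 TPM (3.99 ± 0.27), 69 were detected and 9 reached 10 TPM in each library. The difference in median log2(TPM + 1), cytosolic minus mitochondrial, was 1.70, 2.16 and 2.12 (1.99 ± 0.25, SD, n = 3), above 0 in 3 of 3 libraries. On counts without length correction it was smaller, 1.36 ± 0.11 as log2 CPM with TMM factors.

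Genes that work with the ribosomal proteins were measured from lists. Among ribosomal protein genes with other names, Rack1 had 31.6, 47.4 and 50.6 TPM, Rpsa 20.3, 21.7 and 24.9, and Fau a mean of 30.8 ± 9.38. Each was lowest in replicate 1. Of 25 ribosome assembly genes 24 were detected, with a median of 9.51 ± 1.70 TPM, and Ubtf, the RNA polymerase I factor, was highest at 38.7 ± 8.42. A list of 14 genes with TOP mRNAs held translation factors and other genes, such as Tpt1, Naca, Btf3 and Nap1l1. All 14 were detected (23.1 ± 2.06 TPM), led by Pabpc1, the poly(A)-binding protein gene, with 255, 146 and 195 TPM. All 11 genes that control TOP mRNAs were detected (17.5 ± 4.05 TPM), led by Larp1 with 71.2, 60.3 and 65.0 TPM. The median of the ribosomal protein genes lay between that of the assembly list and that of the 14 genes with TOP mRNAs.

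Retained-intron transcripts carried more of the ribosomal protein signal than any other type. The 85 genes had 499 annotated transcripts, of which 235 were protein-coding, 175 retained intron, 65 processed transcript (no open reading frame assigned) and 24 substrates of nonsense-mediated decay. Retained-intron transcripts held 49.6%, 51.2% and 49.0% of the set's transcript TPM (49.9% ± 1.15), against 39.7% ± 2.12 for all nuclear protein-coding genes. Protein-coding transcripts held 36.1% ± 1.44 against 47.6% ± 2.34. Processed transcripts held 12.4% ± 1.18 against 8.70% ± 0.31, and decay substrates 1.57% ± 0.37 against 3.96% ± 0.11. For each of these types the 3 values of the ribosomal protein genes lay wholly to one side of the 3 values of all genes. The annotation differs too: 64 of the 85 genes (75.3%) had a retained-intron transcript, against 41.4% of all nuclear protein-coding genes.

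**Figure D2:**
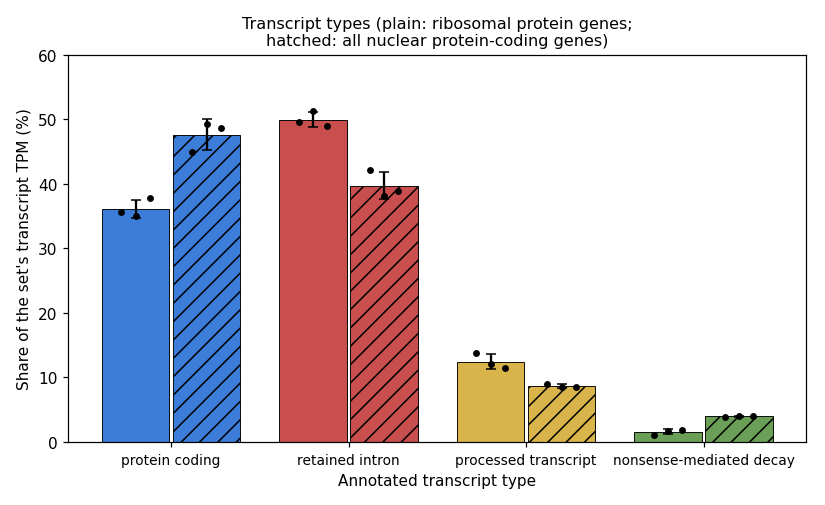
Share of transcript TPM (y axis, percent) on each annotated transcript type (x axis) for the 85 ribosomal protein genes (plain bars) and all nuclear protein-coding genes (hatched bars); bars are means of 3 libraries, error bars SD, points libraries. Retained intron is the highest type for ribosomal protein genes at 49.9%, and protein coding for all genes at 47.6%.

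The retained-intron share of a gene is the part of its transcript TPM on transcripts of that type, taken for genes that have one and at least 1 TPM in each library. For 63 ribosomal protein genes its median was 60.5%, 61.1% and 56.8% (59.5% ± 2.36, SD, n = 3). For 5881 nuclear protein-coding genes it was 50.8%, 46.4% and 47.0% (48.1% ± 2.41). A share above 50% in each library was found for 33 of the 63 genes, where the background was 36.9%. It was below 50% in each library for 19 genes, and 11 lay on both sides of 50%. The gene-by-gene order was similar between libraries, with Spearman's rho across the 63 genes of 0.883, 0.813 and 0.905 for the 3 pairs. Across genes the share went with the number of annotated retained-intron transcripts (rho = 0.53) more than with level (0.18), span (-0.097) or number of snoRNAs (0.28). These are descriptions across 63 genes that share libraries and annotation.

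**Figure D3:**
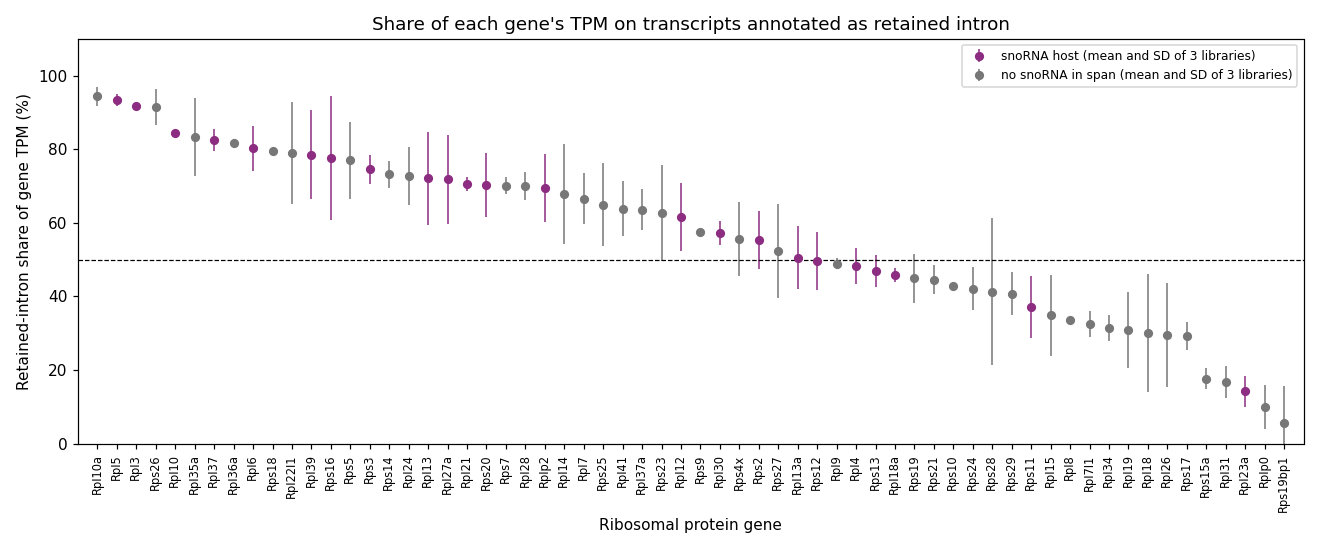
Retained-intron share of gene TPM (y axis, percent) for ribosomal protein genes with such a transcript and at least 1 TPM in each library, in order of the mean; points are means and bars SD of 3 libraries, purple for genes whose span holds a snoRNA and grey for the others, with a dashed line at 50%. Rpl10a, Rpl5, Rpl3, Rps26 and Rpl10 are highest, and Rps19bp1, Rplp0 and Rpl23a lowest.

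In the genes with the highest shares, retained-intron transcripts held at least 84.2% of TPM in each library. Rpl10a had 97.4%, 92.4% and 93.3%, Rpl5 91.8%, 93.4% and 95.0%, and Rpl3 91.5%, 91.7% and 92.2%. Rps26 had 92.0%, 96.0% and 86.5%, and Rpl10 84.2%, 84.5% and 84.5%. In Rpl10 the signal was divided over several introns. Rpl10-208, which holds the 81-base intron 2 printed above, had 31.6, 37.1 and 34.8 TPM, or 33.4% ± 1.33 of the gene. Rpl10-207 had 23.8% ± 3.13 of it, and Rpl10-209, whose exons include the snoRNA Snora70 (chrX:74272484-74272620), 15.1% ± 0.70. Rpl10-204, which holds the 80-base intron 5, had 7.94% ± 1.70.

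Rpl5-205 made up 39.6% ± 2.89 of Rpl5, Rpl3-204 45.5% ± 9.24 of Rpl3, Rpl10a-206 35.2% ± 2.05 of Rpl10a and Rps26-203 66.4% ± 5.18 of Rps26. Of these, Rpl3-204 and Rpl10a-206 hold a whole intron of the reference protein-coding transcript, while Rpl5-205 and Rps26-203 hold none whole. Rpl5-203, with the 262-base intron printed above, had 8.57% ± 0.49 of Rpl5. Only 86 of the 175 retained-intron transcripts of the set hold a whole reference intron. On transcripts of any type that hold one, the median share of 79 detected genes with introns was 25.3% ± 2.19. The median was 0% for mitochondrial ribosomal protein genes and for all nuclear protein-coding genes. A gene without an annotated transcript of this kind has a share of 0 whatever its RNA, so the comparison also reflects the annotation. How many genes of each set could have a share above 0 was not counted.

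At the other end, protein-coding transcripts held at least 82.4% of TPM on average in the 5 genes with the lowest shares. Rplp0 had a retained-intron share of 16.5%, 4.71% and 8.75%, Rpl23a of 19.1%, 11.5% and 12.1%, Rpl31 of 11.9%, 18.0% and 20.5%, and Rps15a of 14.3%, 19.2% and 19.4%. Rps19bp1, with 13, 31 and 27 counts, had 0%, 17.2% and 0%. A low share by type does not mean that introns were absent: in Rpl31, transcripts of any type with a whole reference intron held 55.3%, 58.4% and 62.1%. In the transcript table made directly from reads the retained-intron share of Rpl31 was 37.8%, 37.6% and 50.1%, and that of Rps19bp1 had a mean of 13.5%. Among the other genes of interest Rps3 had 74.5% ± 3.84, Rps14 73.2% ± 3.76, Rplp2 69.5% ± 9.13, Rpl12 61.7% ± 9.22, Rps9 57.4% ± 0.67, Rpl13a 50.5% ± 8.55, Rps19 44.9% ± 6.75 (29.5% in the table made directly from reads) and Rps24 42.2% ± 5.72. In Rps12 the division over transcripts was not stable: Rps12-208 had 14.0, 14.2 and 1.75 TPM and Rps12-206 10.3, 0.00 and 17.1, while the gene had nearly the same level in each library.

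The large-subunit genes had a median share of 63.3% ± 3.17 and the small-subunit genes of 55.9% ± 6.32. The difference was -0.60, 9.78 and 13.0 percentage points in replicates 1, 2 and 3 (7.40 ± 7.12, SD, n = 3), above 0 in 2 of 3 libraries. In the transcript table made directly from reads it had the opposite sign, -7.69 ± 0.71. Against mitochondrial ribosomal protein genes, with 54.1% ± 3.36 over 47 genes, the share of the cytosolic set was higher by 2.77, 7.82 and 5.60 percentage points (5.40 ± 2.53), above 0 in 3 of 3 libraries. The count above 50% in each library was 19 of those 47 genes. Outside the name rule, Rpsa had a share of 54.7% ± 5.05, Fau of 43.3% ± 16.9 and Rack1 of 22.6% ± 4.5.

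A snoRNA or small Cajal body RNA gene lay within the span, on the same strand, of 29 of the 85 genes (34.1%), against 1.27% of all nuclear protein-coding genes. Together they held 55 of the 1558 such RNA genes of the annotation. Rpl4 held 5, Rpl13a 4, and Rpl5, Rpl7a, Rpl17, Rpl23a and Rps12 3 each. Host genes had a median level of 24.3 ± 4.64 TPM and the 56 other genes 16.5 ± 2.85. The difference in median log2(TPM + 1), hosts minus others, was 0.46, 0.61 and 0.52 (0.53 ± 0.074, SD, n = 3), above 0 in 3 of 3 libraries. It was 0.19 ± 0.064 in the transcript table made directly from reads and 1.19 ± 0.11 as log2 CPM with TMM factors, which are not corrected for length.

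Host genes also had higher retained-intron shares. The median was 66.3% ± 3.32 for 24 hosts and 52.8% ± 4.90 for 39 others, a difference of 5.37, 16.0 and 19.0 percentage points (13.5 ± 7.15), above 0 in 3 of 3 libraries. A share above 50% in each library was found for 16 of 24 hosts and 17 of 39 others. The exons of 27 of the 80 retained-intron transcripts of hosts include a snoRNA, and these 27 held 34.9% ± 0.52 of the hosts' retained-intron TPM. With transcripts whose exons hold a snoRNA left out, the difference was -2.67, -0.079 and 7.05 percentage points (1.43 ± 5.04), an alternative added after the data were seen. Rpl13a-218, whose retained intron 4 with Snord33 is printed above, had 2.10, 3.84 and 4.18 TPM, or 8.11% ± 0.26 of the gene. Rpl4, the gene with the most snoRNAs, had a share of 48.2% ± 4.89 and Rpl23a of 14.2% ± 4.23, while Rpl5 and Rpl3, with some of the highest shares given above, are hosts too, so hosts lay at both ends of the range.

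The snoRNAs themselves were mostly not measurable in these files: 36 of the 55 had an effective length of 0 in each library. Above 3 counts in each library were 6. Snord15b and Snord15a, both in introns of Rps3, had 2104, 1522 and 1210 and 397, 528 and 394 counts, against 253, 565 and 471 for Rps3. The others had at most 57.7 counts.

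Of the 80 detected genes 17 had no annotated retained-intron transcript. For 9 of them all TPM was on protein-coding transcripts, among them Rplp1, Rpl38, Rps15, Rpl17 and Rpl36al. Neither this count of 9 nor the next was computed over all genes lacking a retained-intron transcript. Both depend on which types are annotated. For 7 of the 17 the processed-transcript share was above 50% in each library. It was 83.6% ± 1.78 in Rpl23, 82.8% ± 4.89 in Rpl11, 77.6% ± 2.55 in Rps27a, 74.4% ± 6.37 in Rpl22 and 66.4% ± 9.75 in Rps6, beside Rpl7a and Rpl35, named here after their values were seen. Rpl23-205, Rps27a-203, Rps27a-205 and Rps6-203 hold a whole reference intron although their type is processed transcript. Counting transcripts of any type with at least 20 bases inside reference introns, the median share of the set was 76.0% ± 3.28, an alternative added after the data were seen.

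Decay-substrate transcripts were a minor part, with few exceptions. Rpl12-201 had 4.83, 5.84 and 6.91 TPM and made up 25.1% ± 3.53 of Rpl12. Rps13-205 made up 23.3% ± 9.73 of Rps13, and its exons include the snoRNA Snord14a. The decay share was 14.7% ± 8.61 in Rpl13a, 13.4% ± 14.6 in Rpl22l1 and 6.47% ± 11.2 in Rpl36a, and the last 2 were 0 in at least 1 library.

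Replicate 1 stood apart from the others over much of the set. Of the 80 detected genes 61 had their lowest TPM there (76.2%), where the background over 9039 detected nuclear protein-coding genes was 40.8%. It was 25 of 30 small-subunit and 35 of 48 large-subunit genes. The median of log2(TPM + 1) in replicate 1 minus the mean of replicates 2 and 3 was -0.38 for the set, -0.15 for mitochondrial ribosomal protein genes and -0.014 for all. As log2 CPM with TMM factors these were -0.33, -0.23 and -0.15, and 68.1% of the 69 detected mitochondrial ribosomal protein genes were lowest in replicate 1 on that scale, against 75% of the set. By TPM it was 50.7% of those 69 genes. Of the 80 genes, the highest value was in replicate 3 for 50 and in replicate 1 for 8. The deposited interval of replicate 1 lay wholly below those of both other replicates for 14 genes and wholly above for 1, Rps24. Shares over all genes were not computed for these highest values and intervals, so whether they are particular to the set is not known.

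The 5 genes that varied most by the SD of log2(TPM + 1) were Rps21 (4.90, 24.3 and 18.0 TPM, SD 1.11), Rps27l (0.88), Rps15 (5.31, 14.0 and 17.0 TPM, SD 0.81), Rpl10a (0.64) and Rpl38 (0.62). In each of them replicate 1 was lowest. The counts of Rps21 were 11, 81 and 51. The median SD over the detected genes was 0.27, close to 0.25 for all detected nuclear protein-coding genes. On other scales the share of the set lowest in replicate 1 was 91.2% with TPM rescaled to nuclear protein-coding genes (background 60.5%), 75% with TMM factors (52.2%), 67.5% with DESeq2 size factors (49.4%) and 53.8% in the transcript table made directly from reads (32.7%). Replicate 1 had the fewest counts, the most starting RNA and 1.34% of counts on rows that are no annotated gene, against 0.292% and 0.416%. Their part in the result was not tested.

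**Figure D4:**
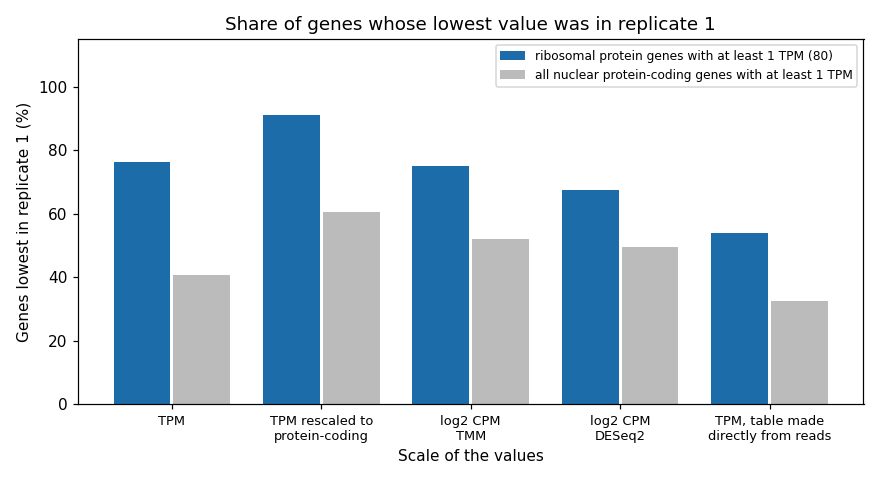
Percent of genes with their lowest value in replicate 1 (y axis) on 5 scales (x axis), for the 80 detected ribosomal protein genes (blue) and all detected nuclear protein-coding genes (grey). The blue bar is above the grey bar on each scale, by the widest margin for TPM, 76.2% against 40.8%.

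Several limits come with the genes. Many have processed pseudogenes, and the sources used here do not say how reads were divided between a gene and its copies. The exons of 16 of the 85 genes overlap those of another protein-coding gene, 13 on the opposite strand and 3 on the same strand, among them Rpl5 with Fam69a, Rpl12 with Lrsam1 and Rps27a with Clhc1. The share over all genes was not computed. The 3 partners on the same strand had mean levels of 0 to 0.00667 TPM. Whether counting used strand is not given either, so overlapping pairs cannot be told apart with certainty.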

How the data were processed

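RNA on chromatin was measured in 3 libraries of 1 group. Per the file headers, the authors deposited, from alignments, one table of genes and one of transcripts, with expected counts (estimated counts, not always whole) and TPM with interval bounds whose level is not stated, and a transcript table made directly from reads. Per the labels, all used mm10 and GENCODE M21. For the aligner, the quantifier and the use of strand, no name is given in the sources used here.

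Gene levels are TPM from the gene table. Shares of transcript types were computed from transcript TPM for genes with at least 1 TPM in each library. TPM is relative to all features of a library, so it also moves with other RNA. A gene set's value is its median within a library, given as mean ± SD over 3 libraries. Level differences used log2(TPM + 1), which understates differences of low genes. The reference transcript was the protein-coding transcript with the best APPRIS rank, then the longest. Expected counts were rounded for edgeR 4.0.16 (TMM factors, log2 CPM, prior count of 1) and DESeq2 1.42.0 (size factors) in R 4.3.3, and Python 3.11.15 with pandas 2.3.3 and numpy 2.4.6 for the rest. The share function and a log2 change in level were tested on simulated data, and the functions for differences between sets were not.

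Named genes were the 10 highest and 5 lowest by TPM, the 5 highest and 5 lowest retained-intron shares, the 5 highest decay shares, the 5 largest SDs of log2(TPM + 1) at a mean of at least 1 TPM, the 5 hosts with the most snoRNAs, the highest gene of each list and a fixed set of well-known members and paralogs; some items are not reported here. Members and lists were chosen with earlier results of these data known. Alternatives were the other transcript table, other scalings, pseudocounts, limits and averages, expected counts in place of TPM, canonical genes only, and leaving out each library.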

Additional observations from a re-analysis of the deposited data

Results flagged for a closer look

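Names that the rule leaves out carried signal. Of 291 loci with ribosomal protein pseudogene names (-ps or -rs), 30 were detected at 1 TPM in each library and 27 had more than 3 counts in each library, the limit that a count of 0 allows. Their summed TPM was 288, 258 and 267 in replicates 1, 2 and 3 (271 ± 15.1, SD, n = 3), against 2003 ± 291 for the ribosomal protein genes. Of the highest, 4 are named here, after their values were seen. Rpl36-ps2 (chr11:76601319-76601629) had 48.0, 58.1 and 52.8 TPM (53.0 ± 5.06), above Rpl36 itself with 21.2 ± 3.21. In the table made directly from reads it had 64.1 TPM and Rpl36 73.1. Rpl26-ps4 had 19.3 ± 5.47 TPM, Rps2-ps9 17.8 ± 1.01 and Rpl23a-ps2 13.5 ± 6.43, against 15.4 for Rpl26, 41.6 for Rps2 and 10.4 for Rpl23a.

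These 4 loci lie within introns of other protein-coding genes: Rpl36-ps2 in Abr (193 ± 6.32 TPM), Rpl26-ps4 in Med15 (148 ± 19.7), Rps2-ps9 in D17Wsu92e (44.6 ± 9.77) and Rpl23a-ps2 in Rabep1 (53.8 ± 9.66). Rabep1 is on the strand of the locus it holds, and Abr, Med15 and D17Wsu92e on the opposite strand. The part of these genes' RNA in the values was not tested.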

How the results depend on the processing

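No paired analysis was possible because the 3 libraries form 1 group. Of 102 alternative values of 11 results, 79 stayed close to the reported value, 20 moved further and 3 changed sign. Close meant within 1 SD of the reported mean or, for counts, within 1.5 times of the reported count. For results given as a mean, leaving out a library could not move the value beyond 1 SD, so those alternatives say nothing on stability. The cause of the moves was not tested. In the table made directly from reads the median level was 24.1 TPM, the level difference between hosts and other genes 0.19 and that to mitochondrial ribosomal protein genes 1.73, the median retained-intron share 54.3%, its difference to mitochondrial ribosomal protein genes 8.83 percentage points and its large minus small difference -7.69. Of 82 single-gene levels 28 lay over 1.5 times away in that table. With means over genes the level was 23.6 TPM and the level differences were 0.71 (hosts), 1.72 (mitochondrial) and -0.047 (large minus small). With TPM rescaled to nuclear protein-coding genes the level was 64.4. As log2 CPM the level differences were 1.19 for hosts and 1.36 for mitochondrial genes, with TMM as with DESeq2 factors. Without genes under a mean of 1 TPM the host difference was 0.41. The pooled share difference to mitochondrial genes was 8.77 percentage points.

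Chosen after seeing the data, transcripts of any type with at least 20 intronic bases gave a share of 76.0% and differences of 6.30 (hosts), 13.9 (mitochondrial) and -0.32 (large minus small) percentage points. Without snoRNA-holding transcripts the share was 53.4% and the host difference 1.43. Leaving out each library in turn gave levels of 17.7 to 21.2 TPM, level differences of 0.49 to 0.56 (hosts), 1.91 to 2.14 (mitochondrial) and 0.044 to 0.13 (large minus small), 80 to 81 detected genes, shares of 58.7% to 60.8%, share differences of 10.7 to 17.5 (hosts), 4.19 to 6.71 (mitochondrial) and 4.59 to 11.4 (large minus small), and 33 to 38 genes above 50%. Genes with few counts, such as Rps27l and Rps19bp1, allow no firm share.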
